A study of Homo sapiens with 6 samples.

Results

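A pair of PC3 cultures that carried an empty vector (EV) were compared after 48 h and after 24 h of interferon-gamma, 2 of the 6 libraries of the series. They were chosen by their treatment labels alone. PC3 is an established prostate carcinoma line grown from a metastasis in bone. The cells were plated in 6-well plates, left overnight and then given 100 ng/ml interferon-gamma, and their total RNA was read on nCounter with the PanCancer IO 360 panel, which counts fluorescent barcodes bound to RNA molecules. The other EV library was untreated and labelled 48 h, and 3 further libraries came from PC3 cells transfected with a BTN1A1 expression vector (48 h and 24 h of interferon-gamma, and untreated, labelled 48 h). The labels do not say whether the transfected cells were a pool or 1 clone. Each group held 1 library, so no difference below has a replicate check or a test. The 48 h culture had also been kept for a day longer than the 24 h culture, with no untreated 24 h library beside it, so time under interferon-gamma and time in culture cannot be told apart from this pair.

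Interferon-gamma binds the receptor chains IFNGR1 and IFNGR2, which activate the kinases JAK1 and JAK2 and a STAT transcription factor that binds GAS elements in promoters. Its first targets include the transcription factor IRF1, the feedback inhibitor SOCS1, guanylate-binding proteins and the CXCR3 ligand chemokines. A second wave needs factors made in the first: IRF1 acts through ISRE elements, and CIITA, a coactivator that is itself induced, switches on the class II HLA genes through the X and Y boxes of their promoters. CIITA itself was not analysed here. Class II genes are therefore the textbook example of late interferon-gamma genes.

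The promoters of 3 class II genes that stood higher at 48 h and of 3 direct targets are shown because each holds a match to an element named above. SOCS1 and CXCL9 hold the ISRE core and no GAS match in this window, and HLA-DPB1 holds the Y box and no match to the X box core. Each is the 250 bases before the gene's RefSeq start (assembly GRCh38.p14), written 5′ to 3′ on the gene's strand. Capitals mark, in the class II promoters, the Y box GATTGG and a core of the X box, AGNNACNGA, and in the direct targets the GAS motif TTCNNNGAA and an ISRE core (GAAA, any 2 bases, GAAA), each searched on both strands.
HLA-DPB1 (chr6:33075740-33075989, plus strand): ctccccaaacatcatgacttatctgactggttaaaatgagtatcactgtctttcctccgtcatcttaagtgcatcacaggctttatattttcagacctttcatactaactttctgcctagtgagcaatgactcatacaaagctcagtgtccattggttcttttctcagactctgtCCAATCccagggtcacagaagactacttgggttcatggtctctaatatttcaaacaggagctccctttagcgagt
HLA-DMB (chr6:32941029-32941278, minus strand): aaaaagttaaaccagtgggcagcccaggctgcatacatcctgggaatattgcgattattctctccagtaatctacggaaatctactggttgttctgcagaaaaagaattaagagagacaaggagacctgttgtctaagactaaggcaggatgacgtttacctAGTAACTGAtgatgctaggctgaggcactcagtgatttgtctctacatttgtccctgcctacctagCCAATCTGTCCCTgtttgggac
HLA-DQB1 (chr6:32666658-32666907, minus strand): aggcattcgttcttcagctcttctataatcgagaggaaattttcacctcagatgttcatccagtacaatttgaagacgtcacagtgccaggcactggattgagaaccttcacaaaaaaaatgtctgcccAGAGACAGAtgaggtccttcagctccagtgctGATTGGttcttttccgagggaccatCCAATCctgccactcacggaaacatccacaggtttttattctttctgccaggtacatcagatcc
SOCS1 (chr16:11256205-11256454, minus strand): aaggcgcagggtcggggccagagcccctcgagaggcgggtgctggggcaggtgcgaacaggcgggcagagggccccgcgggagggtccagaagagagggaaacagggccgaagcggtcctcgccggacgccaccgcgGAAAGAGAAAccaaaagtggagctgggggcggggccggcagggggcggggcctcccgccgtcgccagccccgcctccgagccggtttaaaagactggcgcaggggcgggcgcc
CXCL9 (chr4:76007510-76007759, minus strand): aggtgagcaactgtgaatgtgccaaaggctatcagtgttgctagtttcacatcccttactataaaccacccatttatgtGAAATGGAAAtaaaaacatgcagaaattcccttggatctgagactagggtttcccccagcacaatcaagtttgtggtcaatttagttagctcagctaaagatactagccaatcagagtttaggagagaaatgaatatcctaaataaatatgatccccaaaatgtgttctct
IRF1 (chr5:132490774-132491023, minus strand): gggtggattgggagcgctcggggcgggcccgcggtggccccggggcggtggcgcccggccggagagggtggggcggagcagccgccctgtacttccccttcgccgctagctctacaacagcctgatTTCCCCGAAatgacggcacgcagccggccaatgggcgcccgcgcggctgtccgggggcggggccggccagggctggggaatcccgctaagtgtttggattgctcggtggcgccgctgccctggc
In HLA-DMB the Y box match and 1 of the 2 X box matches overlap by 2 bases. The Y box was found in 9 of 12 class II promoters (75%) against 14.6% of 27305 RefSeq promoters of this length, and the X box core in 7 of 12 (58.3%) against 12.6%. The GAS motif was found in 6 of 12 promoters of the direct targets (50%) against 6.78% of all promoters, and the ISRE core in 5 of 12 (41.7%) against 3.07%. Among 473 promoters of the panel genes compared below, the Y box was found in 16.7%, the X box core in 12.7%, GAS in 8.88% and the ISRE core in 8.67%. The class II promoters with a Y box included those of HLA-DOA and HLA-DOB, which were not higher at 48 h. These matches describe the sequences and do not show binding.

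Total counts were 403510 at 48 h and 441611 at 24 h, against 286341 in the untreated EV library. Counts were scaled so that the geometric mean of the panel's 20 housekeeping genes was equal in all 6 libraries, and all levels below are such scaled counts unless called raw. Of 49 measured T, NK, B and myeloid markers, which PC3 cells should lack, the median scaled count was 20.4 at 48 h, 18.4 at 24 h and 25.7 without interferon-gamma, and 0 were listed at 0. This sets a middle level of the background, and scaled counts under 20 were raised to 20 before a log2 difference was taken. The markers reached 93 raw counts at 48 h, 103 at 24 h and 91 untreated. Of the 49, 26, 22 and 32 in the same order stood at 20 or above when scaled. The floor thus lies within the background, and levels in this range, such as those of STC1, BCAT1 and HLA-DQB1 below, are uncertain. The epithelial marker EPCAM (238 at 48 h, 223 at 24 h and 242 untreated) stood above this range. So did the epithelial marker CDH1 (165, 181 and 190.2 in the same order). STAT3, which the PC3 line is known to lack, stood at background with 17, 10 and 20 raw counts. The summed level of 7 endothelial and fibroblast markers was 3455 at 48 h, 2326 at 24 h and 1837 untreated, most of it from the cadherin CDH11 (3057, 2063 and 1547), and its part in any result was not tested.

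More genes stood higher at 48 h than lower. Of 631 genes with a scaled count of at least 20 in 1 of the 2 libraries, 33 were at least 2-fold higher at 48 h (5.23%) and 7 at least 2-fold lower (1.11%). The median log2 difference, 48 h over 24 h, was 0.11 over all 631, and the 20 housekeeping genes ran from -0.68 (TFRC, the transferrin receptor) to 0.51 (STK11IP). The 33 genes were of 2 kinds: 12 belonged to the class II, antiviral or direct interferon-gamma lists, and 21, led by the stress factor ATF3, the growth factor AREG and the cyclin kinase inhibitor CDKN2B, belonged to none of the 3. The 7 lower genes were the cytokine IL32, SOCS1, the cyclin CCNE1, the chromatin remodeller HELLS, the collagen COL6A3, the chemokine CXCL9 and the secreted hormone STC1. The split between higher and lower depended on the scaling: with equal library medians it was 21 higher and 19 lower, with TMM factors 24 and 11, with total counts 23 and 11, and with DESeq2 factors 26 and 10. The median of all genes then stood at -0.15, -0.01, -0.04 and 0.01 in the same order, so time differences below are read against 0.11.

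**Figure D1:**
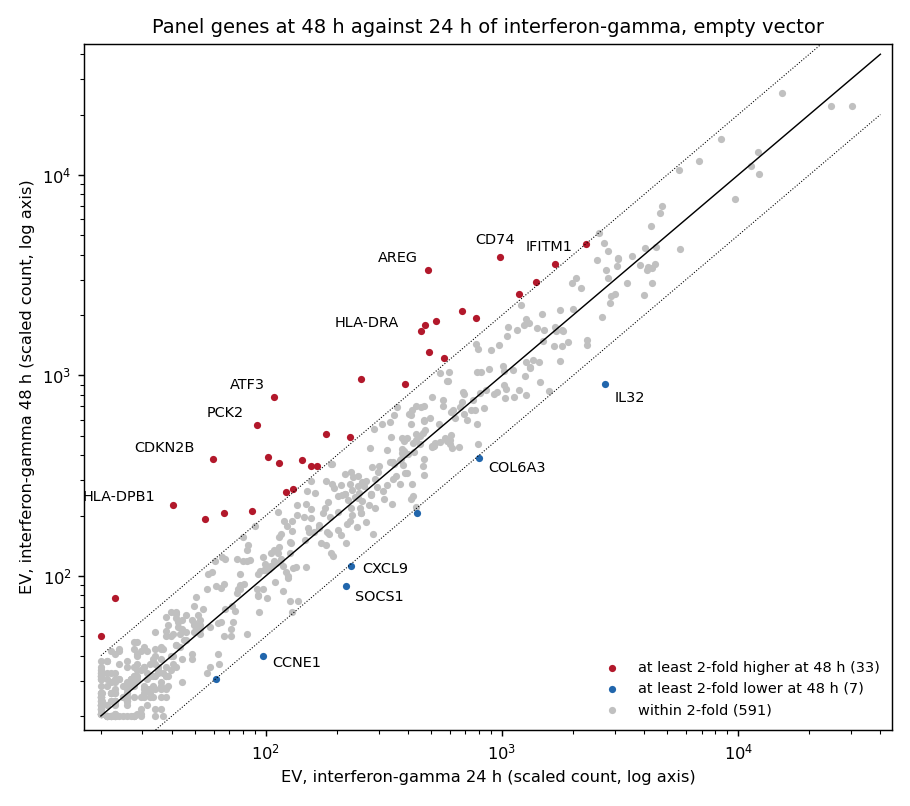
Scaled counts of the 631 compared genes in EV cells after 48 h (vertical, log axis) and 24 h (horizontal, log axis) of interferon-gamma, 1 library each, with values under 20 drawn at 20. The solid line marks equal levels and the dotted lines a 2-fold difference; 33 genes lie above the upper dotted line, among them CD74, HLA-DRA, ATF3, PCK2, AREG and CDKN2B, and 7 below the lower one, IL32 farthest down.

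The class II genes were the late interferon group. Of 12 compared, 8 were at least 2-fold higher at 48 h and 0 at least 2-fold lower, and their median log2 difference was 1.5, against 0.11 over all compared genes. CD74, the invariant chain that escorts class II molecules, stood at 3905 at 48 h, against 983 at 24 h and 45.2 in the untreated library. That is 3.97-fold higher at 48 h (95% exact interval 3.71 to 4.26, from the 2 raw counts alone, so it covers counting error only; intervals below are of this kind, on the log2 scale unless called a fold). HLA-DRA, the alpha chain of HLA-DR, stood at 1671 at 48 h, against 456 at 24 h and 23.7 untreated, a log2 difference of 1.88 (1.73 to 2.02). The HLA-DP chains had differences of similar size: HLA-DPA1 stood at 390.4 at 48 h, against 102 at 24 h and 15.4 untreated. HLA-DPB1 stood at 226 at 48 h, against 40.5 at 24 h and 26.7 untreated, the largest log2 difference of the list at 2.48 (2.0 to 2.98).

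Some class II genes were already well above the untreated level at 24 h and some were near it. HLA-DRB1 (193 at 48 h, 55.2 at 24 h and 44.2 untreated), HLA-DQB1 (77.2, 23.0 and 9.25) and HLA-DPB1 were less than 2-fold above the untreated library at 24 h, with values under 20 raised to 20. CD74, HLA-DRA, HLA-DPA1, HLA-DMA and HLA-DMB had passed 2-fold by then. HLA-DMA and HLA-DMB encode the 2 chains of HLA-DM, which loads peptide onto class II molecules, and had the smallest differences of the 8: HLA-DMA stood at 492 at 48 h, against 227 at 24 h (1.12, 0.89 to 1.35). HLA-DMB stood at 209.9 at 48 h, against 87.5 at 24 h (1.26, 0.90 to 1.64). HLA-DMA fell short of 2-fold with total counts (0.94), TMM factors (0.99) and equal library medians (0.83), as HLA-DMB did with equal library medians (0.98). Over the 8 genes the 24 h level was between 17.9% and 46.2% of the 48 h level, with a median of 27.9%.

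The list was not uniform. CTSS, the protease cathepsin S that trims the invariant chain, stood at 794 at 48 h, against 1257 at 24 h and 47.3 untreated, a log2 difference of -0.66 (-0.80 to -0.53). Alone among the induced members of this list, it was higher at 24 h. HLA-DQA1 (35.2 at 48 h, 15.6 at 24 h) had a log2 difference of 0.81 against the floor of 20. It lay in the range of the background and had 0.27 with total counts. HLA-DOA (-0.03) and HLA-DOB (-0.25), the chains of the HLA-DM inhibitor HLA-DO, stood below their untreated levels in both treated libraries. HLA-DRB5 and HLA-DQA2 were under 20 in both libraries and were not compared. Probes of class II genes can bind close gene copies, so single class II genes are uncertain.

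Most direct interferon-gamma targets stood within 2-fold between the times, as did most compared genes. Of 13 compared, 1 was at least 2-fold higher at 48 h and 2 at least 2-fold lower. Of all 631 compared genes 5.23% were higher and 1.11% lower, so the direct list held the larger share of lower genes. Its median log2 difference was 0.30 (0.02 with equal library medians, 0.13 with total counts and 0.17 with TMM factors). Of the 13 direct targets, 12 were at least 2-fold above the untreated library at both times. SOCS1, which blocks JAK kinases and so limits the response, stood at 88.5 at 48 h, against 218 at 24 h and 26.7 untreated. The 48 h level was 2.46-fold lower (interval 1.90 to 3.23). CXCL9, a T cell chemokine, stood at 112 at 48 h, against 229 at 24 h and 28.8 untreated, 2.04-fold lower at 48 h (interval 1.61 to 2.60). Both were still above the untreated library at 48 h. Of 12 induced direct targets 9 were within 2-fold between the times, as were 78 of all 105 induced genes. The other CXCR3 ligands lay between: CXCL10 stood at 287 at 48 h and 369 at 24 h (-0.36), and CXCL11 at 1191 and 1354 (-0.18).

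IRF1 and the guanylate-binding proteins were somewhat higher at 48 h. IRF1 stood at 7006 at 48 h, against 4743 at 24 h and 174 untreated (0.56, 0.51 to 0.62). GBP1 stood at 4188 at 48 h, against 2807 at 24 h and 22.6 untreated (0.58). GBP4 (3849 at 48 h, 3109 at 24 h) had a log2 difference of 0.31, while GBP2 stood at 2555 at 48 h, against 1180.1 at 24 h, which made it the 1 direct target past 2-fold higher (1.11, 1.02 to 1.21). GBP2 fell just short of 2-fold with total counts (0.94), TMM factors (0.98), DESeq2 factors and equal library medians (0.83). Members of 1 family thus differed in their time difference. The adhesion molecule ICAM1 had a log2 difference of 0.30, IRF9, a partner of STAT2, of 0.61, and CD274 (PD-L1), at 104 and 58.9, of 0.83 (0.35 to 1.31). FCGR1A, a myeloid receptor gene, stood near background (23.8 at 48 h and 25.8 at 24 h), and IRF8 was under 20 in both libraries and was not compared. Over the 12 induced direct targets the 24 h level ran from 46.2% (GBP2) to 246% (SOCS1) of the 48 h level, with a median of 80.9%.

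**Figure D2:**
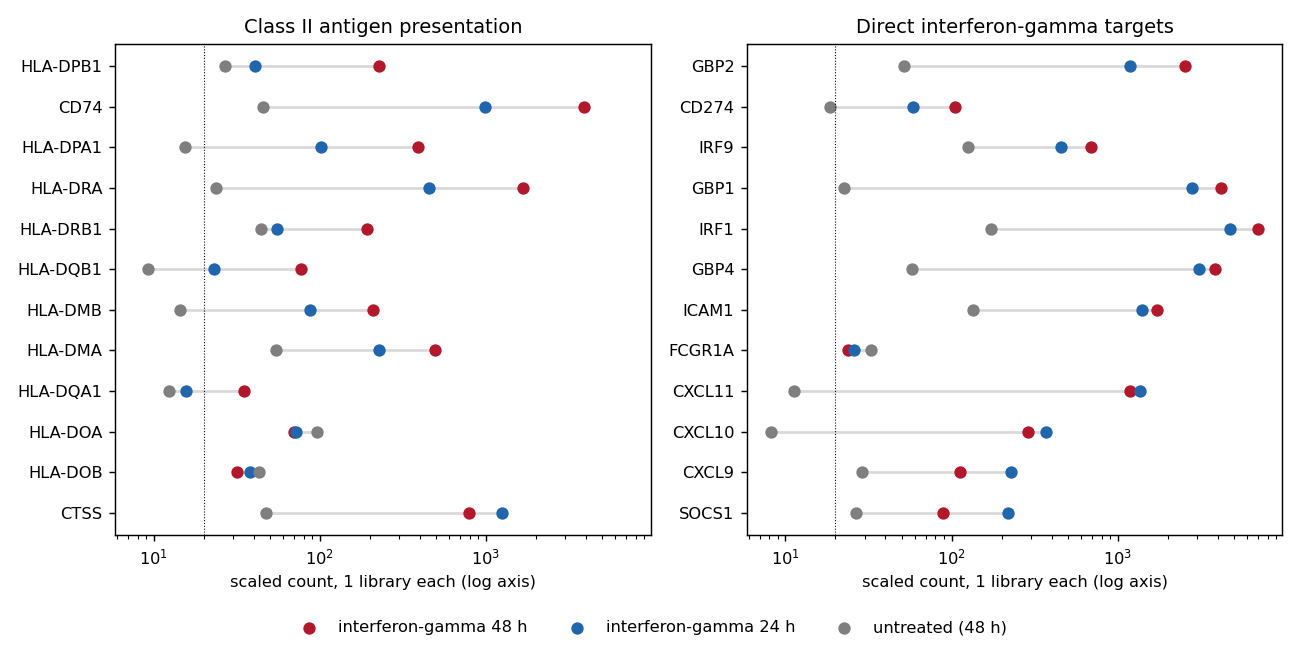
Scaled counts (log axis, 1 library per point) of the 12 compared class II genes and of 12 of the 13 compared direct targets in EV cells at 48 h and 24 h of interferon-gamma and untreated, ordered by the difference between 48 h and 24 h; the dotted line is the floor of 20. For CD74 the point at 48 h lies far from that at 24 h (3905 against 983), while for GBP4 both lie close together (3849 against 3109) and for SOCS1 the 24 h point is the higher (88.5 against 218).

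Antigen presentation by class I and the antiviral genes stood between these groups. Of 14 class I and peptide-loading genes 0 passed 2-fold either way. A difference above 0 was found for 13 (400 of all 631 compared genes had one), and the median was 0.38 (0.10 with equal library medians). The peptide transporter subunits TAP1 (3929 at 48 h, 3544 at 24 h; 0.15) and TAP2 (-0.01) and the immunoproteasome subunits PSMB8 (0.29) and PSMB9 (0.34) were nearly level. The HLA heavy chains differed more. HLA-B stood at 5152 at 48 h, against 2578 at 24 h and 225 untreated, just under the 2-fold line (1.0, 0.93 to 1.07). HLA-C (0.92), HLA-F (0.77) and their shared light chain B2M (25497 at 48 h, 15308 at 24 h; 0.74) followed. Class I probes, like those of class II, can bind related copies.

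Of 28 antiviral interferon genes 3 were at least 2-fold higher at 48 h and 0 lower, beside 5.23% and 1.11% of all compared genes. A difference above 0 was found for 26, beside 400 of all 631, and the median was 0.58 (0.29 with equal library medians). IFI27, an interferon-induced mitochondrial protein, stood at 367 at 48 h, against 113 at 24 h and 29.8 untreated (1.69, 1.39 to 2.01). IFITM1, a membrane protein that hinders virus entry, stood at 3614 at 48 h, against 1675 at 24 h and 154 untreated (1.11). TLR3, a sensor of double-stranded RNA, stood at 272 at 48 h, against 131 at 24 h and 21.6 untreated (1.06). All 3 were already raised at 24 h. IFITM1 and TLR3 fell short of 2-fold with total counts (0.94 and 0.89), TMM factors (0.98 and 0.93), DESeq2 factors (0.99 and 0.94) and equal library medians (0.83 and 0.78), while IFI27 passed it under each. The antiviral GTPase MX1 (0.89), RSAD2, also called viperin (0.92), IFIT3 (0.60), the ubiquitin-like ISG15 (0.47) and STAT2 (0.72) stayed within 2-fold. IFIT1 was level (245 at 48 h and 246 at 24 h), and the kinase PKR, encoded by EIF2AK2 (-0.20), was slightly lower at 48 h.

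At 48 h 99 of 673 compared genes were at least 2-fold above the untreated EV library (14.7%) and 23 at least 2-fold below it (3.42%), and at 24 h 82 of 662 were above (12.4%) and 45 below (6.8%). Both differences share the untreated library. Taking the genes above it at either time, 105 were induced in EV cells. Of these 24 were at least 2-fold higher at 48 h (late), 3 at least 2-fold lower (early: IL32, SOCS1 and CXCL9) and 78 within 2-fold, with a median difference of 0.56. The same 48 h and 24 h libraries define induction and the time classes, so these counts sort the genes and test nothing. A split made after the values were seen divided the late genes further. At 24 h, 10 of the 24 were already at least 2-fold above the untreated library, and 9 of these belonged to the class II, antiviral or direct lists; the other was TMEM140 (377 at 48 h, 142 at 24 h and 38.0 untreated). The remaining 14 were not yet 2-fold above it, of which 3 were class II genes and 11 belonged to none of those lists.

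IL32, an inflammatory cytokine, had the lowest difference of all compared genes. It stood at 907 at 48 h, against 2740.4 at 24 h and 96.7 untreated, 3.02-fold lower at 48 h (interval 2.79 to 3.27). Among tryptophan and checkpoint genes IDO1, which breaks down tryptophan, stood at 11695 at 48 h, against 6798 at 24 h (0.78, 0.74 to 0.83). PDCD1LG2 (PD-L2) stood at 277 and 296 (-0.10), and the costimulatory receptor CD40 at 258 and 161 (0.68). Of 24 compared checkpoint and co-stimulatory genes 0 passed 2-fold either way, with a median of 0.20 (-0.09 with equal library medians). In the signalling chain, also with 0 of 10 past 2-fold and a median of 0.06 (-0.23 with equal library medians), JAK2 (0.54) and IFNGR2 (0.69) stood higher at 48 h, JAK1 (0.03) was level, and the factors IRF5 (-0.81) and IRF4 (-0.47, its 48 h count under 20) stood lower.

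**Figure D3:**
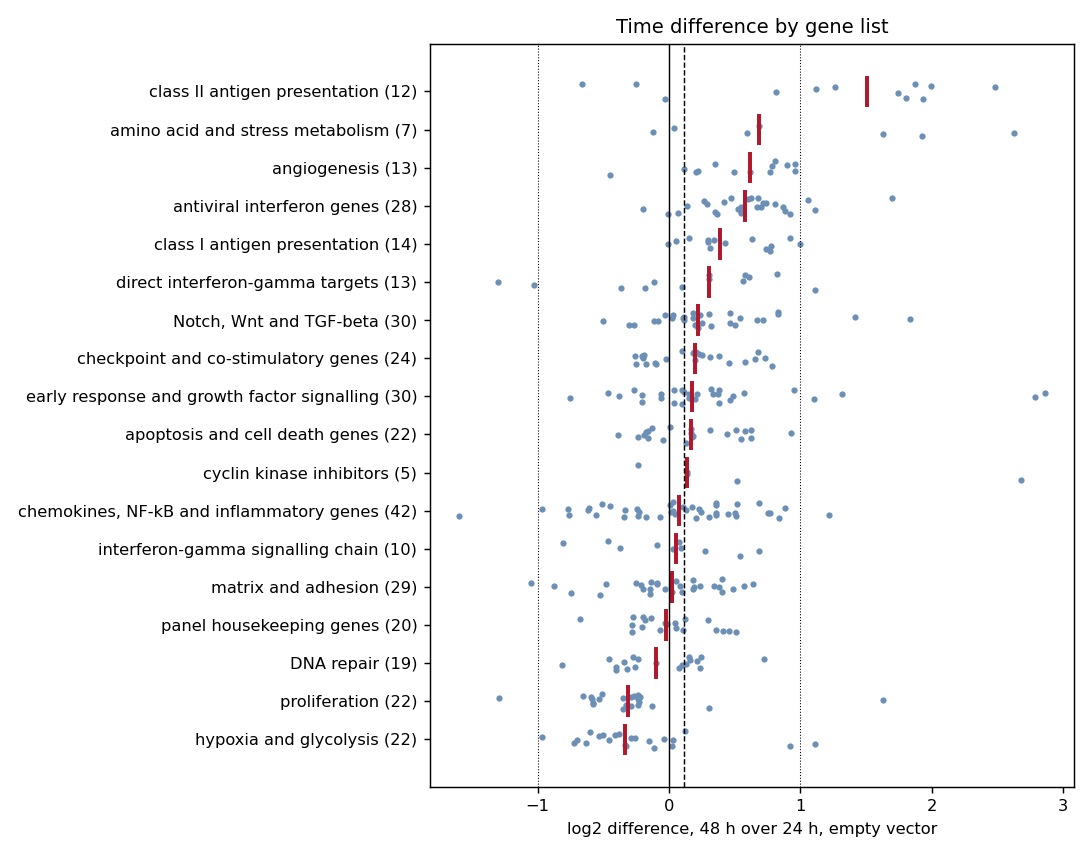
Log2 difference, 48 h over 24 h of interferon-gamma in EV cells, for each compared gene (points) of the 18 gene lists, with the number compared in brackets and the list's median as a bar. The dashed line is the median of all compared genes (0.11) and the dotted lines mark 2-fold; the class II list has the highest median (1.5) and the hypoxia and glycolysis and proliferation lists the lowest (-0.33 and -0.31).

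The 21 genes outside the interferon lists that were higher at 48 h included a stress factor, an enzyme of the mitochondria and a pair of amino acid carriers. ATF3, a stress-induced transcription factor, stood at 783 at 48 h, against 108 at 24 h and 71.0 untreated, the largest difference of all compared genes (2.86, 2.58 to 3.16). PCK2, a mitochondrial enzyme of gluconeogenesis, stood at 569 at 48 h, against 92.1 at 24 h and 161 untreated (2.63, 2.31 to 2.95). The amino acid carriers SLC7A5 (961 at 48 h, 253 at 24 h and 392 untreated; 1.92) and SLC1A5 (2090.2, 676 and 762; 1.63) stood more than 2-fold above both other EV libraries. Of 7 measured amino acid and stress metabolism genes PCK2, SLC7A5 and SLC1A5 passed 2-fold, beside 5.23% of all compared genes, and 0 were 2-fold lower, with a median of 0.68 (0.40 with equal library medians). The translation inhibitor gene EIF4EBP1 (1.08) and the transcription factors CEBPB (1.93) and NFIL3 (1.19) also passed, from 24 h levels close to the untreated ones, and are on none of the lists.

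Other genes above 2-fold included some of growth, Notch and cell cycle control. The shares of the Notch, Wnt and TGF-beta list (2 of 30) and the proliferation list (1 of 22) were near that of all compared genes (5.23%). The early response and growth factor list had 4 of 30 and the cyclin kinase inhibitors 1 of 5. AREG, a ligand of the EGF receptor, stood at 3370.2 at 48 h, against 488 at 24 h and 1071 untreated (2.79, 2.65 to 2.92). HEY1, a transcriptional target of Notch, stood at 1872 at 48 h, against 526 at 24 h and 550.1 untreated (1.83), and the Notch ligand JAG1 at 1308, 491 and 1061 in the same order (1.42). CDKN2B, an inhibitor of the cyclin D kinases, stood at 384 at 48 h, against 59.8 at 24 h and 289.98 untreated (2.68, 2.29 to 3.09). For CDKN2B and JAG1 the 24 h library was thus the low one, and the 2 libraries labelled 48 h lay closer to each other than to it. CCNA1, a cyclin (205 at 48 h, 66.3 at 24 h and 54.5 untreated; 1.63), instead stood apart at 48 h of interferon-gamma. The cytokine LIF (1.22), the early response gene IER3 (1.10) and the growth factor VEGFA (1.11) also passed 2-fold, as did those of the next paragraph. IER3, VEGFA and EIF4EBP1 fell short of it with total counts, TMM factors, DESeq2 factors and equal library medians.

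Culture time is held in these differences. The untreated EV library was labelled 48 h, so a gene that was low at 24 h and near one level in both 48 h libraries differed along with the time label. How much of any difference goes with culture time was not tested. Of 631 compared genes 7 (1.11%) were at least 2-fold lower at 24 h than in both 48 h libraries: AREG, BCAT1, CDKN2B, DUSP5, JAG1, KAT2B and SREBF1. A further 3 (0.475%), CXCL9, IL32 and SOCS1, were at least 2-fold higher at 24 h than in both. For these 3 the libraries labelled 48 h were not near one level. With interferon-gamma and untreated, CXCL9 stood at 112 and 28.8, IL32 at 907 and 96.7, and SOCS1 at 88.5 and 26.7. The 24 h library enters both differences, so they are not independent. DUSP5, a phosphatase that acts on ERK, stood at 1922 at 48 h, against 773 at 24 h and 2468 untreated, and SREBF1, a regulator of lipid synthesis, at 511, 180.4 and 624. KAT2B, a histone acetyltransferase, stood at 355, 164 and 546. BCAT1, which transfers amino groups from branched-chain amino acids, stood at 49.9, 17.5 and 45.2, so its log2 difference of 1.32 is a lower bound. Of the 21 higher genes outside the interferon lists 12 stood at least 2-fold above the untreated 48 h library as well, among them ATF3, PCK2, CEBPB, HEY1, both carriers and also AREG of the 7 above, and 9 within 2-fold of it.

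**Figure D4:**
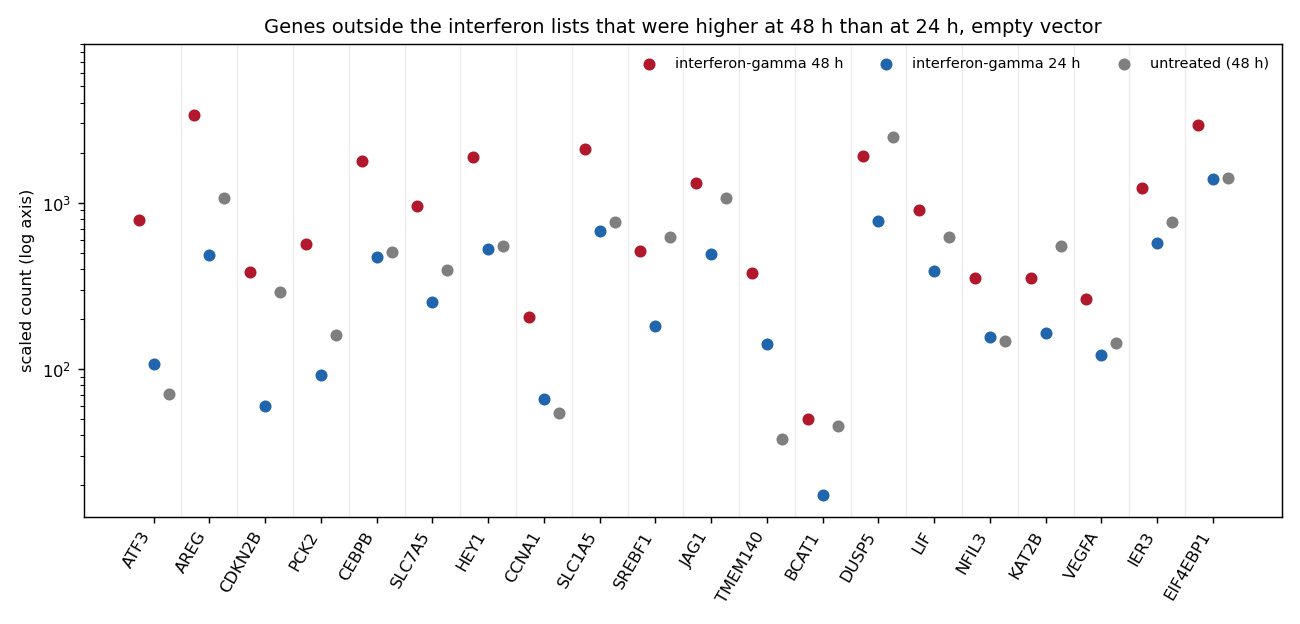
Scaled counts (log axis, 1 library per point) in EV cells at 48 h and 24 h of interferon-gamma and untreated (labelled 48 h) for 20 of the 21 genes outside the class II, antiviral and direct lists that were at least 2-fold higher at 48 h than at 24 h, ordered by that difference. CDKN2B is low in the 24 h library alone (59.8, against 384 and 289.98), while ATF3 is high in the library with 48 h of interferon-gamma alone (783, against 108 and 71.0).

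Cell cycle genes stood slightly lower at 48 h. Of 22 compared proliferation genes 20 had a difference below 0 (231 of all 631 compared genes did), with a median of -0.31, but only CCNE1 was at least 2-fold lower and CCNA1 at least 2-fold higher. CCNE1, the cyclin that drives entry into S phase, stood at 39.7 at 48 h, against 97.6 at 24 h and 102 untreated (-1.30, -1.89 to -0.73). RRM2, which makes deoxynucleotides, stood at 2532 at 48 h, against 3992 at 24 h and 2481 untreated (-0.66), and TYMS, which makes thymidylate, at 2883, 4322 and 3250.5 (-0.58). For RRM2 the untreated 48 h library matched the treated one, and over the list the median difference from the untreated library was 0.03 at 48 h and 0.44 at 24 h. HELLS (207 at 48 h, 437 at 24 h and 355 untreated; -1.08) was likewise highest at 24 h. Of 19 DNA repair genes 0 passed 2-fold, with a median of -0.10.

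The remaining lists held few genes past 2-fold. Of 22 compared apoptosis genes 0 passed 2-fold, with a median of 0.16 (-0.12 with equal library medians). The initiator caspase CASP8 stood at 228 at 48 h, against 148 at 24 h and 88.4 untreated (0.62), and the tumour necrosis factor receptor TNFRSF1A at 638, 413 and 545 (0.63). Of 29 matrix and adhesion genes COL6A3 alone passed, 2-fold lower, with a median of 0.02 (-0.21 with equal library medians). The collagen COL5A1 (-0.87) and the integrin chain ITGAV (251 at 48 h, 421 at 24 h and 376 untreated; -0.75) were also lower. Of 13 angiogenesis genes 0 passed 2-fold and 12 were above 0, beside 400 of all 631 compared genes. Their median was 0.62 (0.34 with equal library medians and 0.23 with total counts). TYMP, thymidine phosphorylase, stood at 586 at 48 h, against 334 at 24 h and 106 untreated (0.81), and KDR, a VEGF receptor, at 209, 112 and 114 (0.89). Among 5 cell cycle inhibitors CDKN2A (0.52) and CDKN1A (-0.24, -0.66 to 0.18) did not share the size of the CDKN2B difference. In the Notch, Wnt and TGF-beta list 2 of 30 passed, HEY1 and JAG1, with a median of 0.22 (-0.06 with equal library medians). In the early response and growth factor list 4 of 30 passed, ATF3, AREG, DUSP5 and IER3. The median of that list was 0.18 (-0.11 with equal library medians). Of all compared genes 5.23% were at least 2-fold higher.

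Most genes at least 2-fold below the untreated library at 24 h were no longer that far below it at 48 h. Of 45 such genes, 13 were so at 48 h too and 32 were not. Genes among the 32 with levels above the untreated library at 48 h included AREG, BCAT1, CDKN2B and JAG1. Few rose by much: of 44 compared between the times, 44 were above 0 and 7 at least 2-fold higher at 48 h, with a median of 0.54. The 32 also held immune markers that PC3 cells should lack, such as CD28 and CD38. The median immune marker level was 25.7 untreated and 18.4 at 24 h, and its part was not tested. The 24 h library chose these genes, so the counts are a description. The genes named next are among the 13. MMP1, a collagenase, stood at 54.5 at 48 h and 52.5 at 24 h, against 446 untreated, with no time difference larger than counting error (0.05, -0.53 to 0.63). The immediate early factor EGR1 (51.1 at 48 h, 40.5 at 24 h and 153 untreated; 0.33) had an interval from -0.30 to 0.97. The complement component C5 stood at 155 at 48 h and 80.1 at 24 h, against 455 untreated (0.96, 0.56 to 1.36), and the thromboxane synthase TBXAS1 at 118 and 60.8, against 329 (0.96, 0.50 to 1.43). Both came close to 2-fold higher at 48 h and were still under the untreated library. HES1, another Notch target, stood at 178 at 48 h and 122 at 24 h, against 409 untreated (0.54), so HES1 and HEY1 stood on opposite sides of the untreated level.

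The same time difference in the cultures with the BTN1A1 vector used other libraries. There 45 of 641 genes were at least 2-fold higher at 48 h (7.02%) and 5 lower (0.78%), with a median of 0.37, and the median level of the immune markers moved with them, at 25.7 at 48 h against 18.7 at 24 h, with its part not tested. With TMM factors the counts were 13 higher and 17 lower, with DESeq2 factors 7 and 22, and with equal library medians 15 and 14. The direct targets IRF1 and GBP1 stood far below their EV levels: IRF1 stood at 384 at 48 h and 411 at 24 h with the BTN1A1 vector, against 66.9 untreated, and GBP1 at 27 and 12.8, against 7.13. The genes higher in both vectors were ATF3, PCK2 and HLA-DPA1, 9.09% of the 33 in EV and 6.67% of the 45. ATF3 stood at 815 at 48 h and 239 at 24 h with the BTN1A1 vector, against 948 untreated, and PCK2 at 606 and 193, against 639. In those cultures both genes were thus lowest in the 24 h library and highest in the untreated library labelled 48 h, whereas in EV cells the untreated library was well below the 48 h one. HLA-DPA1 was near background there (42.9 at 48 h and 17.9 at 24 h).

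Of the late class II genes of EV cells HLA-DPA1 alone passed 2-fold with the BTN1A1 vector. HLA-DMA came close there, at 58.9 at 48 h and 29.8 at 24 h (0.98, 0.32 to 1.65). HLA-DQB1 had a log2 difference of 0.87 (0.28 to 1.48), HLA-DRB1 of 0.49 and HLA-DMB of 0.21. CD74 stood at 66.2 at 48 h and 40.0 at 24 h with the BTN1A1 vector (0.73, 0.13 to 1.32), and HLA-DPB1 at 22.1 and 16.2 (0.14). HLA-DRA was under 20 in both and was not compared. Of the 33 genes 31 were compared with the BTN1A1 vector, and their log2 differences there ran from -0.57 for SLC7A5 to 1.77 for ATF3, with a median of 0.62; 28 were within 2-fold. Whether the vectors differ in the time difference was not tested, since each time point is 1 library per vector. Across the 581 genes compared in both, Pearson's r between the differences was 0.22, given as a description across genes, which are not independent replicates.

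**Figure D5:**
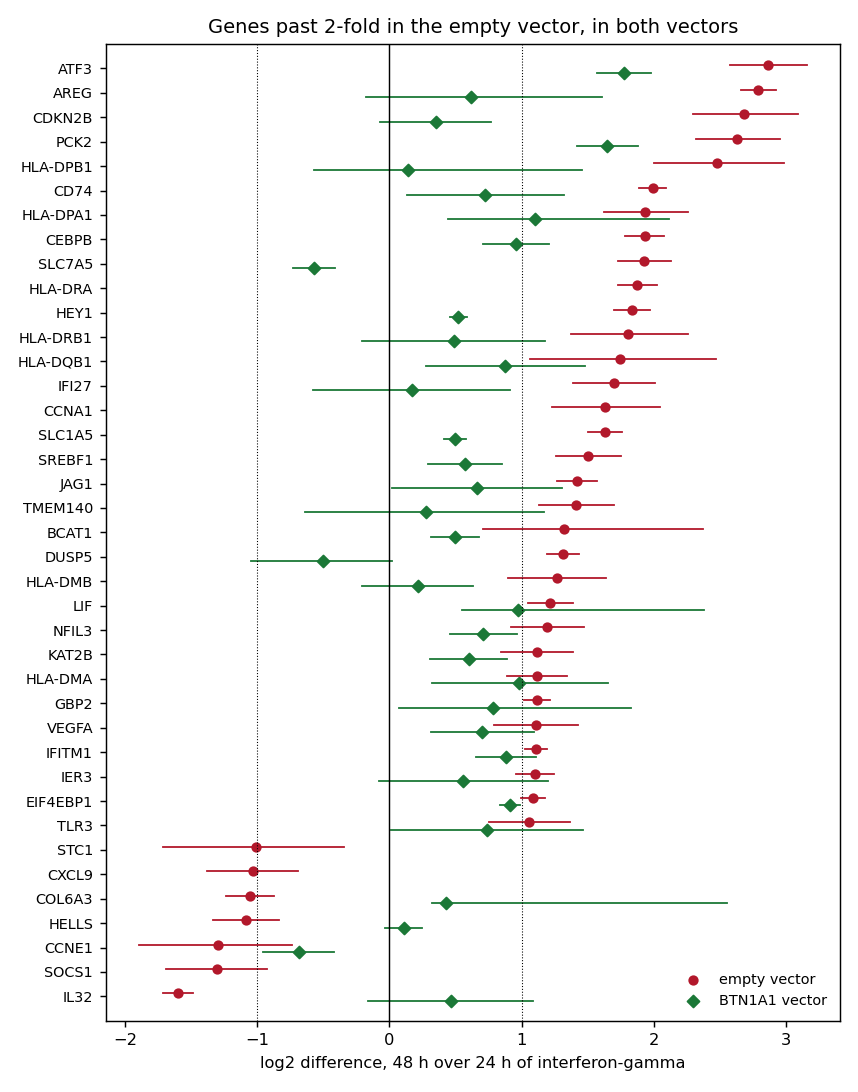
Log2 difference, 48 h over 24 h of interferon-gamma, for 39 of the 40 genes past 2-fold in EV cells (circles) and for the same genes with the BTN1A1 vector (diamonds, where compared). Lines are 95% exact intervals from the unfloored raw counts and cover counting error only; ATF3 and PCK2 lie right of the 2-fold line (dotted) in both vectors, and SLC7A5 lies on opposite sides of 0 (1.92 in EV and -0.57 with the BTN1A1 vector).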

How the data were processed

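Total RNA of PC3 cultures was measured, per the labels' protocols, with an nCounter panel (PanCancer IO 360). The deposited values are raw counts of barcodes for 770 probes in 6 libraries, and the 4620 values are whole. The authors' counting software, and any scaling by control probes, are not given in these sources. Libraries were grouped by their treatment label, 1 library per group. Each library was multiplied by a factor that made its 20 housekeeping genes equal in geometric mean to those of the other libraries (scaled counts). A floor of 20 was then set, a gene was compared where either library of a pair reached it, and differences of at least 2-fold were counted. With 1 library a side no test was run. Intervals are exact (Clopper-Pearson) at 95% on the share of 2 raw counts (scipy 1.17.1, Python 3.11.15) and cover counting error only. The procedure was tested on simulated counts with counting error only, unchanged housekeeping genes and changes placed only in genes well above the floor. That simulation does not cover errors of scaling or changes in genes near the floor. The members and the 18 gene lists were chosen with earlier results of these data known. Genes named are the 15 largest differences per direction, all members of the direct and class II lists, up to 4 of each other list and a fixed set; some others were named after their values were seen, and some genes are not reported here. Of 770 probe names 756 matched RefSeq symbols (GRCh38.p14), 6 matched as synonyms and 8 neither. Alternatives used other scalings (totals, edgeR 4.0.16 TMM and DESeq2 1.42.0 size factors in R 4.3.3, equal medians, housekeeping genes without TFRC and UBB), floors of 50 or 10, no filter with 1 added, and 1.5-fold. The RefSeq promoter table held 12 of 14 class II genes and 12 of 14 direct targets, and the first listed start was used.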

Additional observations from a re-analysis of the deposited data

Results flagged for a closer look

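Past 2-fold in the empty vector, 5 genes named here had a difference of the other sign with the BTN1A1 vector. Each vector gave 1 library against 1, so the difference between vectors was not tested. The median over all genes compared with the BTN1A1 vector was 0.37. The amino acid carrier SLC7A5 had a log2 difference, 48 h over 24 h, of 1.92 in EV (1.73 to 2.13) and -0.57 with the BTN1A1 vector (-0.73 to -0.41). The ERK phosphatase DUSP5 had 1.31 and -0.51 in the same order, the latter with an interval of -1.05 to 0.02. With the BTN1A1 vector DUSP5 stood at only 56.4 at 48 h and 80.1 at 24 h, against 1922 and 773 in EV. The cytokine IL32 had -1.60 in EV and 0.46 with the BTN1A1 vector (-0.16 to 1.08). Its scaled counts there were 55.2 at 48 h and 40.0 at 24 h. The chromatin remodeller HELLS had -1.08 in EV and 0.11 with the BTN1A1 vector (-0.03 to 0.25). For DUSP5, IL32 and HELLS the interval with the BTN1A1 vector held 0, so no opposite change was seen there beyond counting error. The collagen COL6A3 had -1.05 in EV and 0.43 with the BTN1A1 vector, where it was near background (27 at 48 h and 10.2 at 24 h). The vectors also differed without interferon-gamma. Untreated DUSP5 stood at 2468 in EV and 45.5 with the BTN1A1 vector, COL6A3 at 463 and 16.9, and IL32 at 96.7 and 43.7. Untreated SLC7A5 stood at 392 in EV and 613 with the BTN1A1 vector, and HELLS at 355 and 961.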

How the results depend on the processing

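The class II list kept its sign and its place above all compared genes under every scaling and floor tried, with a median between 1.19 and 1.53, and at 2-fold 6 to 9 of its members were called, the 9 with HLA-DQA1 gained at a floor of 10 or with no filter. Scalings moved the median of all genes between -0.15 and 0.11. With equal medians 21 genes were higher and 19 lower in EV, 14 induced genes were late and 6 early, 6 genes were higher at 24 h than in both 48 h libraries, and the BTN1A1 vector gave 15 higher and 14 lower. The list medians were then 0.10 for class I, 0.29 for antiviral and -0.59 for proliferation genes. With total counts 11 genes were lower, 15 were late and the antiviral median was 0.40. With TMM factors 11 were lower, 5 were early, 3 had the 24 h library below and 5 above both 48 h libraries, and the BTN1A1 vector gave 13 higher and 17 lower. With DESeq2 factors 7 were early, 4 had the 24 h library below and 7 above both, and the BTN1A1 vector gave 7 higher and 22 lower. Without TFRC and UBB among the housekeeping genes the BTN1A1 vector gave 27 higher. A floor of 50 gave 18 higher with the BTN1A1 vector. A floor of 10 gave 12 lower in EV and 89 higher with the BTN1A1 vector, and no filter with 1 added gave 13 lower, 12 with the 24 h library below both and 105 higher with the BTN1A1 vector. At 1.5-fold 116 were higher and 33 lower in EV, 64 late and 16 early, 39 below and 16 above both 48 h libraries at 24 h, and the BTN1A1 vector gave 199 higher and 19 lower. The cause of these shifts was not tested beyond what each setting changes by construction. The 33 higher genes in EV were all among the 116, and 21 of them were kept with equal medians. No called gene changed sign. Only the counts and the medians of the direct, class II, class I, antiviral and proliferation lists are covered here. The other 82 of these recomputed values stayed within 1.5 times their value (counts) or within an interval of the median over the list's members (medians). That interval is wide for the direct targets, whose median fell to 0.02 with equal medians. Some medians of the remaining lists left their interval. The Notch, Wnt and TGF-beta list did so with total counts, TMM factors, DESeq2 factors and equal medians. The early response and matrix lists did so with total counts and equal medians, and the DNA repair and hypoxia lists with equal medians. No paired analysis was possible because each group held 1 library and the labels give no replicate numbers. With 1 library a side, culture, extraction and hybridisation differences cannot be told apart from time.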

Other observations

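Several hypoxia-related genes, picked after their values were seen, stood lower at 48 h than at 24 h, with the untreated library lower still. The hypoxia and glycolysis list as a whole did not have this order. Its median difference from the untreated library was -0.01 at 48 h and 0.26 at 24 h. The collagen prolyl hydroxylase P4HA2 stood at 221 at 48 h, against 432 at 24 h and 174 untreated (-0.96, -1.21 to -0.72), and P4HA1 at 929, 1442 and 851. P4HA2 passed 2-fold lower with total counts (-1.14), TMM factors (-1.09), DESeq2 factors (-1.08), equal library medians (-1.25) and without TFRC and UBB (-1.02). The lysyl hydroxylase PLOD2 stood at 836, 1579.6 and 509 in the same order (-0.92). Of 22 compared hypoxia and glycolysis genes 17 had a difference below 0, beside 231 of all 631, with a median of -0.33 (-0.62 with equal library medians), yet HIF1A, the oxygen-regulated factor, stood at 10589.5 at 48 h, against 5603 at 24 h and 6083 untreated (0.92, 0.87 to 0.97), and VEGFA at 262, 122 and 143. HIF1A and VEGFA thus differed in sign from most of the list.

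Some neutrophil chemokines and an NF-kB inhibitor stood lower at 48 h, as IL32 did. CXCL1 stood at 243 at 48 h, against 411 at 24 h and 255 untreated (-0.76, -1.0 to -0.52), and CXCL6 at 65.8, 129 and 108 (-0.97). NFKBIA, the inhibitor that holds NF-kB in the cytoplasm, stood at 1496, 2284 and 979.97 (-0.61), and the interleukin receptor chain IL7R at 457, 789.8 and 171 (-0.79). CXCL8 (-0.07) was level within counting error and IL6 (0.51, 0.09 to 0.93) stood higher at 48 h. Of 42 compared chemokine, NF-kB and inflammatory genes 1 was at least 2-fold higher at 48 h (LIF) and 1 lower (IL32), with a median of 0.08 (-0.13 with equal library medians). DKK1, a secreted Wnt inhibitor and one of the most counted genes of the panel here, stood at 15051 at 48 h, against 8472 at 24 h and 14400.3 untreated (0.83, 0.79 to 0.87), again with the 24 h library lowest.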
